A study of Mus musculus with 2 samples.

Results

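The tumour necrosis factor (TNF) superfamily and its receptors were examined in the acetylation profiles of mouse colonic macrophages. The genes were chosen by name and not by any measured value, though with earlier results of these data known. All RefSeq protein-coding genes with a Tnfsf or Tnfrsf number were taken, together with Tnf, Lta, Ltb, Ltbr, Fas, Fasl, Cd27, Cd40, Cd40lg, Cd70, Ngfr and Eda2r. The rule gave 43 genes, 17 for ligands and 26 for receptors, of 21887 protein-coding genes on the autosomes, X and Y.

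The study mapped histone H3 acetylated at lysine 27 (H3K27ac), which marks promoters and enhancers in use, by CUT&Tag, an assay in which an antibody guides a transposase to the marked chromatin. All mice were male, of strain C57BL/6 and 11.1 weeks old, were untreated and carried Lyz2-Cre, a Cre recombinase driven by the lysozyme gene of myeloid cells. The labels give the WT group no other allele, whereas the Tle4cKO group also carried the floxed Tle4 allele (Tle4f/f), so that the transcriptional corepressor Tle4 was targeted in myeloid cells. Macrophages negative for Siglec-F, low for Ly6C and positive for CD64 were sorted from the colons of 4 mice per genotype and pooled, which left 1 library per genotype, no replicate and no test between genotypes.

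Ligands of the TNF family are mostly trimeric membrane proteins that can be shed, and they signal by clustering receptors of the matching receptor family. Some receptors carry a death domain and can lead to apoptosis or necroptosis, many recruit TRAF adaptors and activate NF-kB, and a few are decoys that bind the ligand without signalling. In the gut, TNF made by macrophages drives inflammation, and other members direct lymphoid tissue formation, B cell survival and costimulation of T cells.

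The deposited data were lists of peak summits, positions of 1 bp where the signal of a peak is highest, each with a score that the authors' peak caller gave. It was taken for a −log10 p- or q-value. It grows with read depth, which is unknown here, so that the scores of the lists are not on a common scale. It served to rank summits within one list and, as an alternative setting, for a minimum of 5 in both lists. The WT list held 10474 summits and the Tle4cKO list 2350. A gene without a summit had no peak called, and signal below the calling threshold cannot be seen. Because the cells were pooled, fewer cells with the mark and less of the mark per cell cannot be told apart. Tle4 itself had no summit of either library within 10 kb, so that the lists do not check the genotype. Of 15 macrophage marker genes, 9 had a WT summit within 10 kb, among them Fcgr1, which encodes CD64 (5.49), and 0 had a Tle4cKO summit. Over all protein-coding genes the shares were 39.2% and 11.6%, and the exact 95% interval for 0 of 15 reaches 21.8%. Itgam, Lyz2, C1qa, C1qb, C1qc and Cd163 had none in either list. WT summits lay within 10 kb of 2 of 10 T cell markers (Cd3g and Cd4), 3 of 7 B and plasma cell markers (Cd79b, Ms4a1 and Jchain) and 1 of 8 epithelial markers (Cdh1), and Jchain also had a Tle4cKO summit (2.10). The part of other cells in the results below was not tested.

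In the WT library, 5 members had a summit within 1 kb of a start site that the RefSeq promoter table lists: the ligand genes Tnfsf10, Tnfsf13 and Tnfsf13b and the receptor genes Ltbr and Tnfrsf23. Their promoters are shown because these are the members whose acetylation can be placed near a listed start of transcription. Each line holds the 250 bases before the start, 5′ to 3′ on the coding strand (RefSeq, GRCm38.p6, the assembly of mm10), and capitals mark matches to the motifs described after them.
Tnfsf10, chr3:27316827-27317076, plus strand: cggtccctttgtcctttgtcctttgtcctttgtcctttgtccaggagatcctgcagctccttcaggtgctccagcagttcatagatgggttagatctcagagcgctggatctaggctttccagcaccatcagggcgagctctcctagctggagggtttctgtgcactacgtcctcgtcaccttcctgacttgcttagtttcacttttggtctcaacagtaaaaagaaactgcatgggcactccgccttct
Tnfsf13, chr11:69685555-69685804, minus strand: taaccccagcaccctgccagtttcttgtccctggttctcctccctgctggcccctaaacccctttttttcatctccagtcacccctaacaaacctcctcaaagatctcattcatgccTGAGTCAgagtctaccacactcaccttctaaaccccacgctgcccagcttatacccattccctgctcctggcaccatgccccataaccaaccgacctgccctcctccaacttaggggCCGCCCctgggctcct
Tnfsf13b, chr8:10006383-10006632, plus strand: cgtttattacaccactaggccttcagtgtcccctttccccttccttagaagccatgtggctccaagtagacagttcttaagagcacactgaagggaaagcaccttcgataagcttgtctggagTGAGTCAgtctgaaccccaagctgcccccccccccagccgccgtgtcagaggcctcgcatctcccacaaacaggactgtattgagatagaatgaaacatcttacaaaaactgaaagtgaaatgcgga
Ltbr, chr6:125313886-125314135, minus strand: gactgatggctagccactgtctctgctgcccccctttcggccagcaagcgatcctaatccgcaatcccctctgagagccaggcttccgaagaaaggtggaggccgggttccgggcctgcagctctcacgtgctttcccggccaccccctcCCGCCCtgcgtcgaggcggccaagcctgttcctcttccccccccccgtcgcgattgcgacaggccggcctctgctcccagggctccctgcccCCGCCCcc
Tnfrsf23, chr7:143685876-143686125, minus strand: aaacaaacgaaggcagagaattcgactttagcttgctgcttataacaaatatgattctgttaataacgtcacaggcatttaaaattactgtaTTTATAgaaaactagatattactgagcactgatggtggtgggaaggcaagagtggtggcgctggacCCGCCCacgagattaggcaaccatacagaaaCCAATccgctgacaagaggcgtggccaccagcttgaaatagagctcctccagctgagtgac

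The summit of Tnfsf10 lay 113 bp before the start, inside the sequence shown. The summits of Tnfsf13 and Tnfsf13b lay 281 bp before and 110 bp after the start, that of Ltbr 230 bp after and that of Tnfrsf23 261 bp before. Tnfsf13b has a second listed start farther upstream, 276 bp from its summit. The listed start of Tnfrsf23 lies inside the annotated gene, whose outer end is at 143686436. Its summit, 300 bp from that end, and the sequence shown therefore also lie inside the gene. A promoter sequence was found for 33 of the 43 members and not for Tnfsf4, Cd40, Tnfrsf26, Tnfrsf22, Tnfsf12, Tnfrsf10b, Tnfrsf11b, Tnfsf9, Cd70 and Cd40lg. Among the 33, a WT summit within 1 kb of a listed start was found for 5 (15.2%, exact Clopper-Pearson 95% interval 5.11 to 31.9%), against 25.0% of all 17492 genes with a listed start. A Tle4cKO summit was found at 0 of the 33, for which the interval reaches 10.6%, against 6.92% of all genes. All intervals cover counting error only, and neighbouring genes that use a common summit are not independent.

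The promoters shown differed in base composition. That of Ltbr was 69.2% G and C with 18 CpG dinucleotides, and that of Tnfrsf23 was 44.8% with 8. Those of Tnfsf10 (51.6%, 6 CpG), Tnfsf13 (56.4%, 3 CpG) and Tnfsf13b (50.4%, 6 CpG) lay between them in G and C. Over 5025 promoters of all genes with a WT summit within 1 kb of a gene end the medians were 59.6% and 17 CpG, and over 16238 promoters of genes without one they were 54.0% and 7. Of the 5 promoters, only that of Ltbr had as many CpG dinucleotides as the median of the marked genes.

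Motifs were searched on both strands of these 250 bases, and a match is a description of letters only. Members were counted as genes, 33 with 37 promoters between them, whereas the share of all was taken over single promoters. An AP-1 motif (TGANTCA, where N is any base) was found in the promoters of Tnfsf13, 133 bases before the start, and Tnfsf13b, 127 bases before it. It was found in 6 of the 33 members with a promoter and in 6.13% of 21263 promoters of protein-coding genes. The GC box (GGGCGG) occurred in those of Ltbr, Tnfsf13 and Tnfrsf23, in 17 of the 33 members and in 42.6% of all promoters. A CCAAT box and a TATAAA motif were found in the promoter of Tnfrsf23, the TATAAA motif on the opposite strand. CCAAT was found in 5 members and in 35.4% of all promoters, and TATAAA in 7 members and in 11.6% of all. An NF-kB motif (GGGA and TTCC with any 2 bases between them) was found in 1 member, Ltb, and in 1.19% of all promoters. The ETS core CCGGAAG was found in 3 members (8.98% of all promoters) and the PU.1 core GAGGAAG in 6 (10.3%), none of them among the 5 promoters shown. No 2 of these motifs overlapped in the promoters shown.

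**Figure D1:**
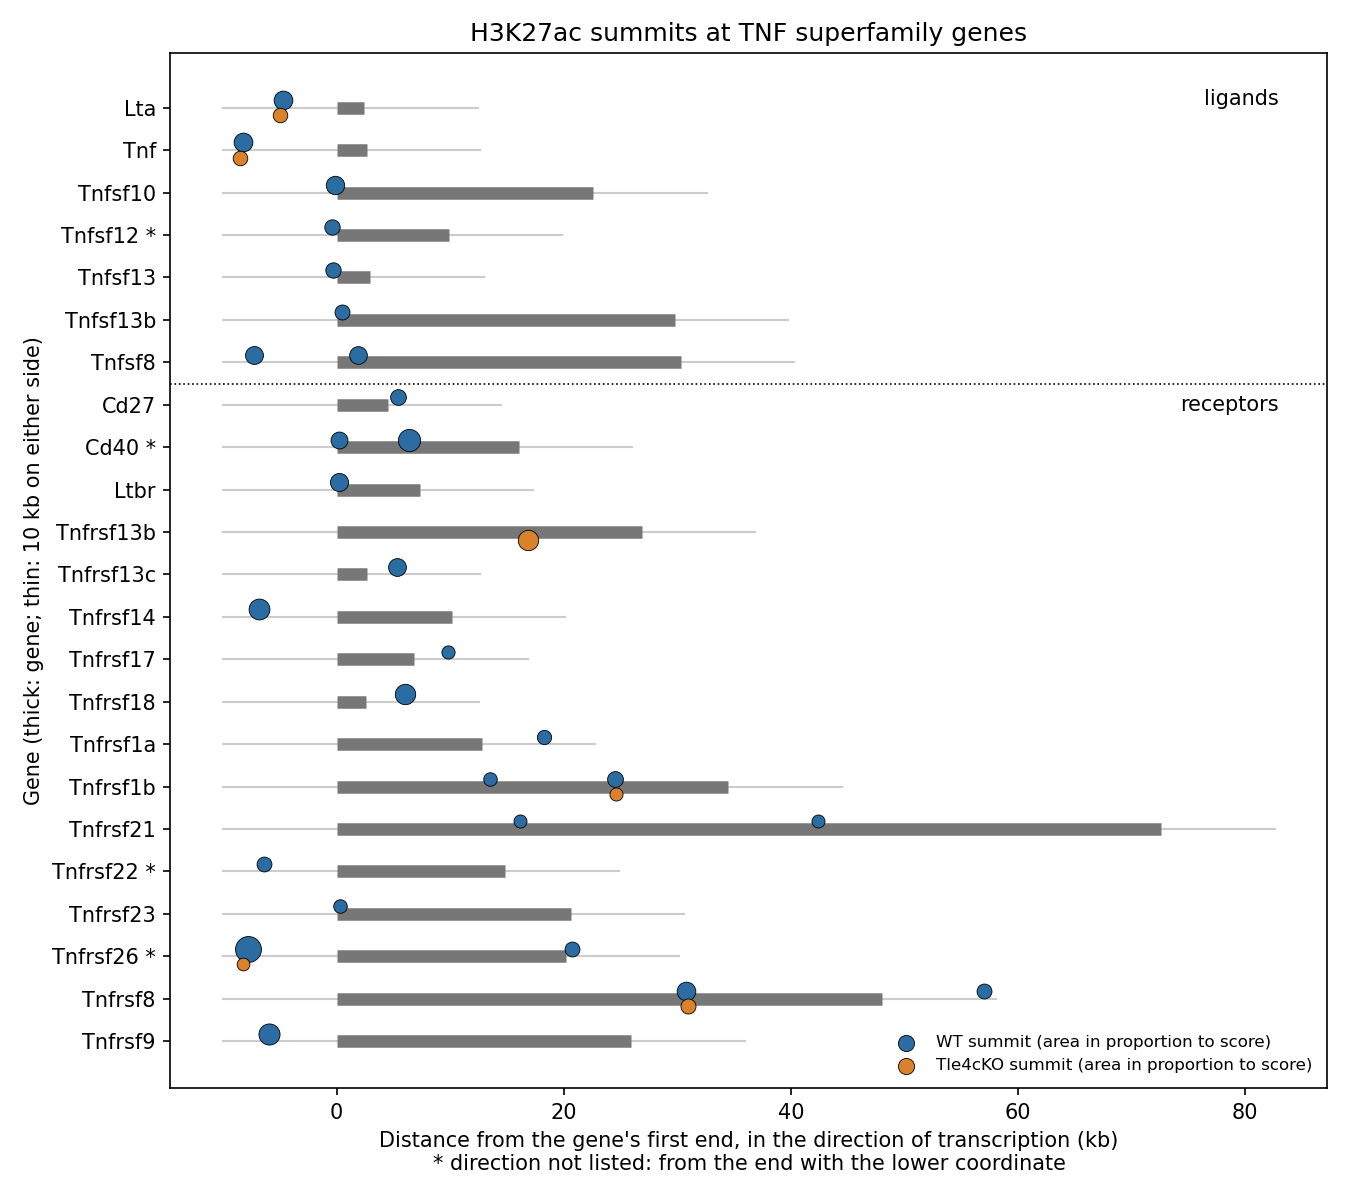
Position of every summit within 10 kb of the 23 members that had one. The horizontal axis is the distance in kb from the first end of the gene in the direction of transcription (for genes marked *, from the end with the lower coordinate), thick bars are genes, and the area of a point is in proportion to its score. WT points lie at many genes, while Tle4cKO points lie at 6 genes, inside the gene or outside it and never within 1 kb of one of its ends.

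Within the gene or 10 kb of it, 22 of the 43 members had a WT summit (51.2%, interval 35.5 to 66.7%), against 39.2% of all protein-coding genes. A Tle4cKO summit was present at 6 (14%, 5.30 to 27.9%), against 11.6%. Both intervals include the share of all genes. Summits of both libraries were present at 5 members (Tnf, Lta, Tnfrsf1b, Tnfrsf8 and Tnfrsf26), a WT summit alone at 17, a Tle4cKO summit alone at 1 (Tnfrsf13b) and neither at 20. Of the 22 members with a WT summit, 22.7% (7.82 to 45.4%) also had a Tle4cKO summit, against 27.6% of all genes with a WT summit. The members rested on 25 distinct WT summits and 5 distinct Tle4cKO summits. Of the 25, 8 lay at a gene end (up to 1 kb from either outer end) of a member, 7 elsewhere inside a member and 10 outside, and 7 lay closer to, or inside, a gene that is not a member. The members had a median length of 14.9 kb, against 17.2 kb over all genes.

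At gene ends, 9 members had a WT summit (20.9%, interval 10.0 to 36.0%), against 22.6% of all genes, and 0 had a Tle4cKO summit, against 6.19%. For 0 of 43 the interval reaches 8.22%. The 9 genes were Tnfsf10, Tnfsf12, Tnfsf13, Tnfsf13b, Cd27, Cd40, Ltbr, Tnfrsf23 and Tnfrsf26. Of all genes with a WT gene-end summit, 24.7% also had a Tle4cKO one, which lies within the interval for 0 of 9 (0 to 33.6%). The gene-end scores of the members were low, with a median of 3.63 and a range of 2.81 to 5.22, against a median of 5.19 over all 4951 genes with such a summit. Among the 2105 genes with a highest WT gene-end score in that range, 13.3% had a Tle4cKO gene-end summit.

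Ligands and receptors were then counted apart. A WT summit within 10 kb was present at 7 of 17 ligand genes (41.2%, 18.4 to 67.1%) and at 15 of 26 receptor genes (57.7%, 36.9 to 76.6%). A Tle4cKO summit was present at 2 ligand genes (11.8%, 1.46 to 36.4%) and 4 receptor genes (15.4%, 4.36 to 34.9%). At gene ends, 4 ligand genes (23.5%) and 5 receptor genes (19.2%) had a WT summit. The intervals of ligands and receptors overlapped in each of these counts, and the difference was not tested. Over all protein-coding genes the shares within 10 kb were 39.2% in WT and 11.6% in Tle4cKO, and the WT share at gene ends was 22.6%. Receptor genes had a median length of 17.9 kb and ligand genes of 9.86 kb, so that the 10 kb windows of receptor genes were wider.

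**Figure D2:**
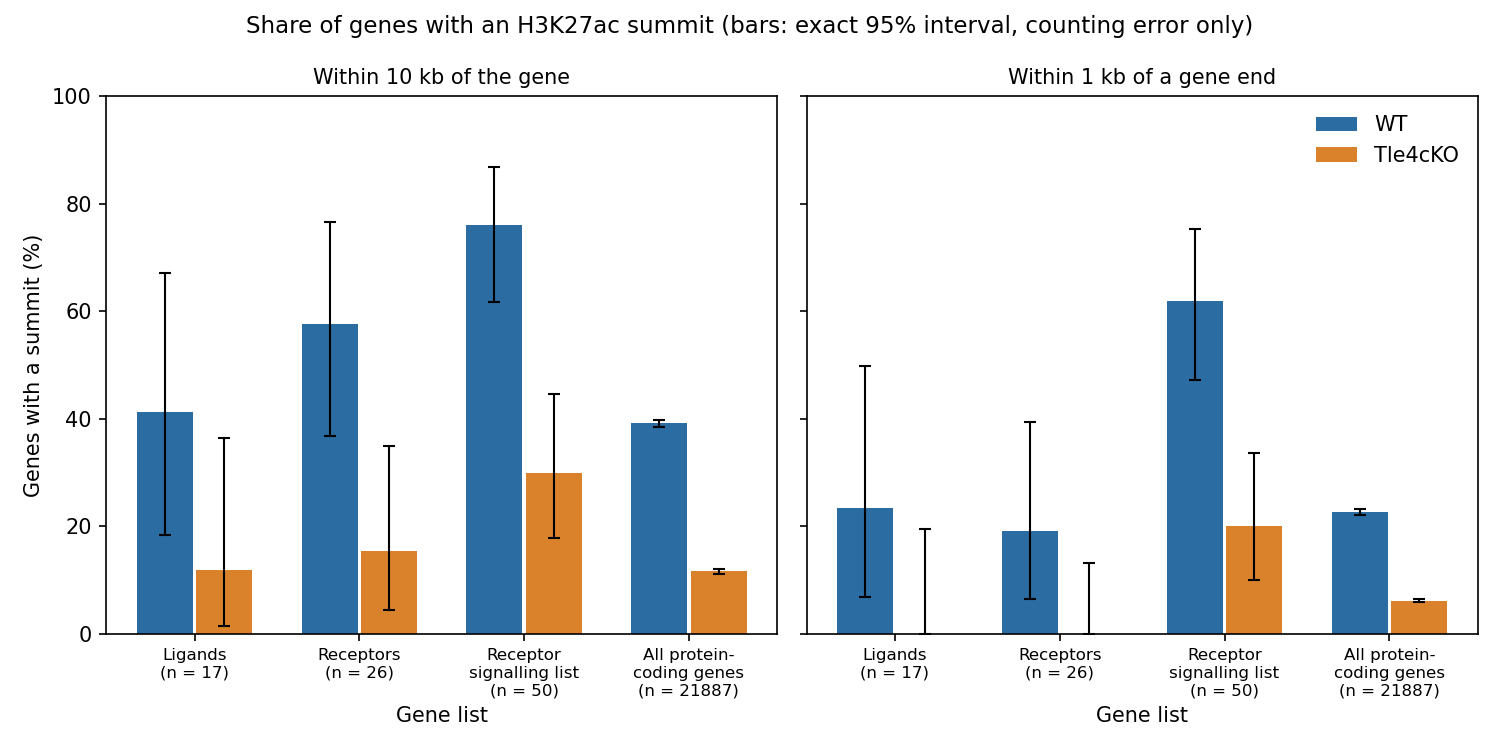
Share of genes (%) with a WT or a Tle4cKO summit within 10 kb of the gene (left) and within 1 kb of a gene end (right), for the ligand, receptor, receptor signalling and all protein-coding genes. Error bars are exact 95% intervals for counting error. In the right panel the ligands and receptors have no Tle4cKO bar because 0 genes had a summit, and the receptor signalling list stands at 62.0% in WT.

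Among the ligands, Tnf and Lta lie next to each other on chromosome 17 (Tnf at 35199367 to 35202007 and Lta at 35203165 to 35205578), followed on the other side of Tnf by Ltb. Tnf encodes the founding cytokine of the family, Lta lymphotoxin alpha and Ltb the membrane anchor of the lymphotoxin heterotrimer. The WT library had 1 summit near them, at position 35210265, and its score of 5.40 was higher than 65.8% of the WT list. It lay 8258 bp upstream of the start of Tnf and 4914 bp upstream of that of Lta. A Tle4cKO summit with a score of 3.26, higher than 30.4% of its list, lay 269 bp away at position 35210534. Lta was the closest protein-coding gene to both. Neither library had a summit within 1 kb of an end of Tnf, Lta or Ltb, and the closest WT summit to Ltb was this one, 14 kb from the gene. It was the only place where ligand genes had summits of both libraries.

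Tnfsf10 (chromosome 3, 27317077 to 27339665) encodes TRAIL, a death ligand. Its WT summit at its start scored 5.22, higher than 63.2% of the WT list and the highest gene-end score among the members. The closest Tle4cKO summit lay 88.8 kb from the gene. Tnfsf13b (chromosome 8, 10006229 to 10036000), which encodes the B cell survival factor BAFF, had a WT score of 3.46. Tnfsf13, which encodes APRIL, a second factor for B and plasma cells, and Tnfsf12, which encodes TWEAK, are neighbours on chromosome 11 and had a common WT summit of 3.63 at position 69685835. That summit lay 281 bp outside Tnfsf13 and 405 bp outside Tnfsf12, inside Tnfsfm13, the readthrough gene of the pair. These scores were higher than 27.3% and 31.3% of the WT list, and the closest Tle4cKO summits lay 628 kb from Tnfsf13b and 236 kb from Tnfsf13.

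Tnfsf8 (chromosome 4, 63831202 to 63861508), which encodes the CD30 ligand, was the only ligand gene with more than 1 WT summit. A summit of 4.80 lay inside the gene, 1634 bp after its start, and a summit of 4.92 lay 7462 bp before the start. No Tle4cKO summit lay within 286 kb of the gene. The remaining 10 ligand genes, Cd40lg, Cd70, Fasl, Ltb, Tnfsf11, Tnfsf14, Tnfsf15, Tnfsf18, Tnfsf4 and Tnfsf9, had no summit of either library within 10 kb. Cd40lg and Fasl among them are best known from activated lymphocytes. Genes known from lymphocytes were not all without a summit. Of the B cell genes for receptors of BAFF and APRIL, Tnfrsf13c (4.86) and Tnfrsf17 (2.67) had WT summits within 10 kb, and Tnfrsf13b had none. The part of cell type was not tested. The closest WT summits of the 10 ligand genes lay from 14 kb (Ltb) to 229 kb (Tnfsf11, which encodes RANKL) away. The run of Tnfsf9, Cd70 and Tnfsf14 over 88.9 kb of chromosome 17 and the pair of Tnfsf4 and Tnfsf18 over 110 kb of chromosome 1 held none.

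Among the receptors, those for TNF itself differed in where their summits lay. Tnfrsf1b (chromosome 4, 145212368 to 145246870) encodes TNFR2. It had WT summits of 3.83 and 2.81 inside the gene, 24502 and 13534 bp after the start. A Tle4cKO summit of 2.64 lay 106 bp from the first of these. Tnfrsf1a, which encodes the death domain receptor TNFR1, had a WT summit of 3.13 at a distance of 5538 bp from the gene, inside its neighbour Plekhg6, and no Tle4cKO summit within 520 kb. None of these summits lay at a gene end.

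Tnfrsf8 (chromosome 4, 145267132 to 145315164) encodes CD30, the receptor of the Tnfsf8 product, and lies next to Tnfrsf1b within a stretch of 103 kb. Inside it a WT summit of 5.36 and a Tle4cKO summit of 3.47 lay 148 bp apart, 30810 and 30958 bp after the start. A further WT summit of 3.42 lay 9007 bp beyond its other end, between these genes. Tnfrsf1b and Tnfrsf8 were the only members with summits of both libraries inside the gene. The stretch held 4 WT and 2 Tle4cKO summits within 10 kb of either gene.

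Ltbr, the lymphotoxin beta receptor gene (chromosome 6, 125306571 to 125313885), had a WT summit of 5.03 that also lay within 1 kb of an end of Scnn1a. Cd27, Ltbr and Tnfrsf1a lie within 130 kb. Each had 1 WT summit within 10 kb, and 0 had a Tle4cKO summit. The Cd27 summit (3.79) lay 866 bp past the gene, 5273 bp after the start of Cd27 and inside its neighbour Tapbpl. Cd40 (chromosome 2, 165055614 to 165071654), the receptor through which T cells activate macrophages and B cells, had WT summits of 4.40 at an outer end and 7.56 inside the gene. The latter was higher than 86.4% of the WT list and was the highest score inside a member. The closest Tle4cKO summit to Cd40 lay 144 kb away.

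Tnfrsf9, Tnfrsf14 and Tnfrsf18, which encode some of the receptors that costimulate T cells, had WT summits near, but not at, their ends. A WT summit of 6.83, higher than 81.8% of the list, lay 5979 bp upstream of the start of Tnfrsf9, which encodes 4-1BB, and 4255 bp from the closest gene, Park7. A WT summit of 6.66 lay 7382 bp upstream of the start of Tnfrsf14, which encodes HVEM and was the closest gene. Tnfrsf18, which encodes GITR, had a WT summit of 6.38 at 3488 bp past the gene, closer to Ttll10 at 2453 bp. No Tle4cKO summit lay within 10 kb of these 3 genes, and Tnfrsf4, the OX40 gene next to Tnfrsf18, had no summit of either library within 10 kb.

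The B cell receptor genes of the BAFF and APRIL ligands included the only member with a Tle4cKO summit alone. Tnfrsf13b (chromosome 11, 61126283 to 61153170), which encodes TACI, had a Tle4cKO summit of 6.36 inside the gene, 16394 bp after its start at position 61143149. This score was higher than 81.2% of the Tle4cKO list and was the highest Tle4cKO score among the members. The closest WT summit lay 21.7 kb from the gene. Over all protein-coding genes, 0.832% had a Tle4cKO summit alone within 10 kb. Tnfrsf13c, which encodes the BAFF receptor, had a WT summit of 4.86 at 2665 bp past the gene. Tnfrsf17, which encodes BCMA, had a WT summit of 2.67 at an end of its neighbour Snx29, 2980 bp past Tnfrsf17.

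The decoy TRAIL receptor genes Tnfrsf22 and Tnfrsf23 and the related Tnfrsf26 form a run of 78.8 kb on chromosome 7. A WT summit of 3.39 lay 575 bp outside Tnfrsf26 and 6388 bp outside Tnfrsf22, and a WT summit of 2.81 lay 261 bp before the listed start of Tnfrsf23. Tnfrsf26 also had a WT summit of 10.3, the highest of all 25, and a Tle4cKO summit of 2.49 within 10 kb, 482 bp apart. Both lay at an end of Cars, the cysteinyl-tRNA synthetase gene, 7764 and 8246 bp outside Tnfrsf26. Tnfrsf21, which encodes death receptor 6, had WT summits of 2.62 and 2.60 inside the gene, 16170 and 42389 bp after the start, the lowest WT scores among the members. These 4 genes had no Tle4cKO summit inside the gene or at its ends.

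The 10 receptor genes without a summit of either library within 10 kb were Eda2r, Fas, Ngfr, Tnfrsf10b, Tnfrsf11a, Tnfrsf11b, Tnfrsf12a, Tnfrsf19, Tnfrsf25 and Tnfrsf4. They include the death receptor genes Fas and Tnfrsf10b, the latter for the mouse TRAIL receptor, and Tnfrsf11a and Tnfrsf11b, for the RANKL receptor RANK and its soluble decoy osteoprotegerin. Their closest WT summits lay from 12.0 kb (Tnfrsf4) to 1240 kb (Eda2r) away. For Fas the distance was 98.1 kb and for Tnfrsf10b 35.1 kb.

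**Figure D3:**
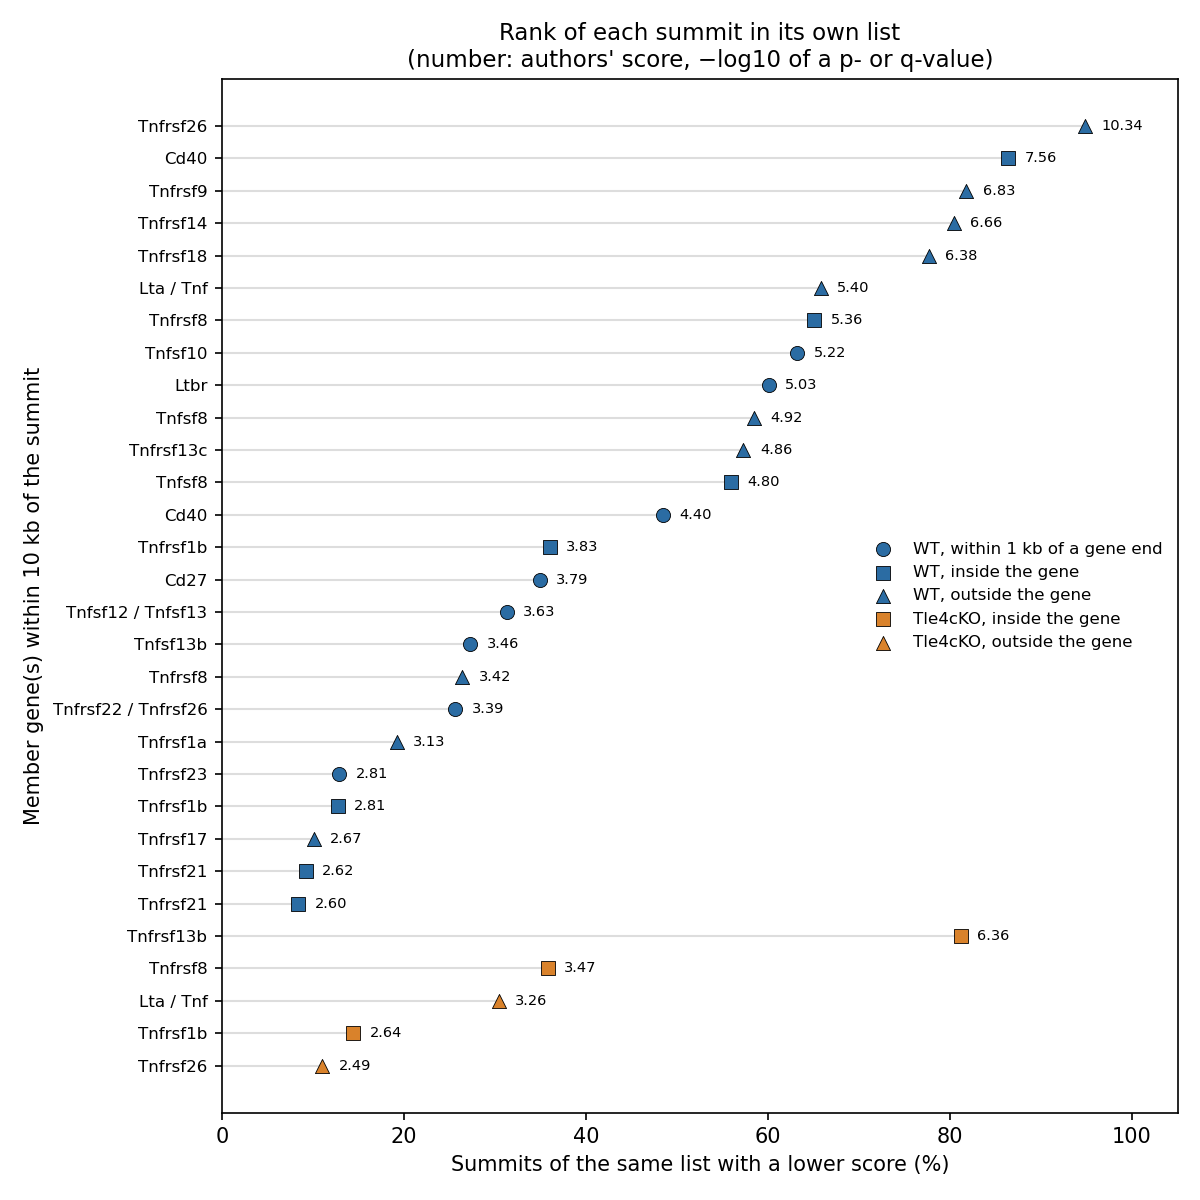
Rank of each of the 25 WT and 5 Tle4cKO summits within 10 kb of a member, as the share (%) of summits in the same list with a lower score. The number beside each point is the authors' score, and the shape shows where the summit lay. The 8 WT gene-end summits lie at or below 63.2%, while the 5 WT summits at 77.7% and above lie inside Cd40 or outside the gene, and the Tle4cKO summit of Tnfrsf13b stands apart from the other 4.

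Ligands and receptors that are known to bind each other were set side by side as 24 pairs, chosen after the data had been seen. The list is not complete. Tnfsf10 was paired with Tnfrsf10b but not with the decoy receptor genes Tnfrsf22 and Tnfrsf23, which had WT summits within 10 kb. The counts depend on the pairs chosen and have no share over all genes to be read against. In WT, both genes had a summit within 10 kb in 8 pairs, the receptor gene alone in 7, the ligand gene alone in 4 and neither in 5. The pairs with both included Tnf and Lta with each of Tnfrsf1a and Tnfrsf1b, Tnfsf8 with Tnfrsf8, and Tnfsf13b with Tnfrsf13c. The receptor gene alone was marked for Cd40 (ligand Cd40lg), Cd27 (Cd70), Tnfrsf9 (Tnfsf9), Tnfrsf18 (Tnfsf18) and Tnfrsf14 (Tnfsf14), and for Ltbr with Ltb or Tnfsf14. The ligand gene alone was marked for Tnfsf10 with Tnfrsf10b, Tnfsf12 with Tnfrsf12a, and Tnfsf13 and Tnfsf13b with Tnfrsf13b. Neither gene was marked for Fasl and Fas, Tnfsf4 and Tnfrsf4, Tnfsf15 and Tnfrsf25, or Tnfsf11 with Tnfrsf11a and Tnfrsf11b. In Tle4cKO, both genes had a summit in 2 pairs, Tnf and Lta with Tnfrsf1b, and neither had one in 17. The receptor gene alone had one in 3 pairs, Tnfsf8 with Tnfrsf8 and Tnfsf13 and Tnfsf13b with Tnfrsf13b, and the ligand gene alone in 2, Tnf and Lta with Tnfrsf1a. Several pairs use the same gene and the pairs are not independent.

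Genes that act downstream of the receptors were counted in the same way. They were chosen with earlier results of these data known. Of a list of 50 signalling genes (TRAF adaptors, RIP kinases, caspase-8 and its regulators, ubiquitin ligases and deubiquitinases, IkB kinases and NF-kB subunits, and Adam17), 38 had a WT summit within 10 kb (76.0%, interval 61.8 to 86.9%) and 15 a Tle4cKO summit (30.0%, 17.9 to 44.6%), against 39.2% and 11.6% of all genes. In this window both intervals overlap those of the 43 members, and the difference from the members was not tested. All 15 also had a WT summit, and 0 genes had a Tle4cKO summit alone. At gene ends, 31 had a WT summit (62.0%, 47.2 to 75.3%) and 10 a Tle4cKO one (20%, 10.0 to 33.7%), against 22.6% and 6.19% of all genes, and in all 10 a WT gene-end summit was present as well. The gene-end intervals of the members, 10.0 to 36.0% in WT and 0 to 8.22% in Tle4cKO, did not overlap these. That difference was not tested either. Among the 38 genes marked in WT within 10 kb, 39.5% (24 to 56.6%) also had a Tle4cKO summit, against 27.6% over all genes. That interval includes the share of all genes. In 13 of the 15 genes with both, the closest WT and Tle4cKO summits lay within 500 bp. This count has no share over all genes to be read against.

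The highest WT gene-end scores of the signalling list belonged to Nfkbib, an inhibitor of NF-kB (13.9), Adam17, the protease that sheds TNF (10.4), Rnf31, the catalytic subunit of the linear ubiquitin ligase complex (8.50), and Ikbkg (8.31). Rnf31 and Ikbkg also had Tle4cKO gene-end summits (4.44 and 3.99), whereas Nfkbib and Adam17 had none within 10 kb. The scores that follow are the highest within 10 kb, WT first, and need not lie at a gene end. Chuk, an IkB kinase gene (7.74 and 2.45), and Traf5, a TRAF adaptor gene (7.59 and 4.39), were among the other genes with summits of both. For Traf5 no summit lay at a gene end, and for Chuk no Tle4cKO summit did. A few more genes were chosen after their values were seen. The other subunits of the linear ubiquitin ligase complex, Rbck1 (3.73 and 2.93) and Sharpin (5.61 and 3.35), had summits of both libraries, though no Tle4cKO summit of Sharpin lay at a gene end. The genes of the list that act in cell death were split. Ripk1 (6.05 and 3.40), Casp8 (7.04 and 4.16) and Cflar (6.59 and 2.87) had summits of both libraries, Fadd (6.43) and Tradd (3.29) had WT summits alone, and Ripk3 and Mlkl had none in either. At gene ends the WT score of Cflar was 5.36, and Tradd had no summit there. Traf6 (5.22 and 5.77) and Birc3 (4.02 and 4.38) had a Tle4cKO score above the WT score, and values of the separate lists are not on a common scale. At gene ends the scores of Birc3 were 4.02 and 3.75.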

How the data were processed

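H3K27ac CUT&Tag was carried out on pooled colonic macrophages, 1 library per genotype. Per the submitters' processing notes, cutadapt 1.14 and Bowtie2 2.2.5 were used with the build mm10. For the peak caller, its threshold, any control library and the depth, the sources used here give nothing. The authors deposited 1 summit list per library with a score per summit, read as a −log10 p- or q-value because its lowest values lie just above 1.30, the −log10 of 0.05.

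Only the autosomes (1 to 19), X and Y were used, which left out 4 WT and 2 Tle4cKO summits. Gene positions came from RefSeq (GRCm38.p6), and starts and strands from the RefSeq promoter table, of which the 250 bases before the start were used. A gene end is within 1 kb of either outer end of a gene. A summit counted for every gene in whose window it lay. Counting was done in Python 3.11.15 with SciPy 1.17.1 and tested on simulated summits. Samples were grouped by the genotype label. The members and lists were chosen with earlier results of these data known, and the pairs and the score range after the data had been seen. All members with a summit were to be named. Of the signalling list these were the 4 highest WT gene-end scores, up to 4 genes with both and up to 4 with Tle4cKO alone. Alternatives were other windows, a score minimum, a shortened WT list and the closest gene only. Ighm was not matched.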

Additional observations from a re-analysis of the deposited data

How the results depend on the processing

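No paired analysis was possible because there is 1 library per genotype. The count of 22 members with a WT summit within 10 kb was 17 and 24 with windows of 5 and 20 kb, against 7645 and 10088 of all 21887 genes. It fell to 8 when the summit had to lie inside the gene, to 10 at a score of at least 5, to 13 when a summit counted for the closest gene only, and to 5 with the WT list reduced to the length of the Tle4cKO list, when all 5 were receptor genes. Of all 21887 genes, 5537 had a WT summit inside the gene. Within 10 kb, 4583 had one at a score of at least 5 and 2810 with the reduced WT list. The count by closest gene has no share over all genes to be read against. The share of the members was below that of all genes inside the gene and with the reduced list, and above it at a score of at least 5. The 6 members with a Tle4cKO summit became 3 inside the gene and 1, Tnfrsf13b, at a score of at least 5. For the Tle4cKO count at that score no share over all genes is at hand. The minimum of 5 need not be the same cut in both lists, whose scores are not on a common scale. The 9 members with a WT gene-end summit became 2 at a score of at least 5 and 0 with the reduced WT list. Without the share over all genes at these settings, that fall is not read as a result about the members. The 0 members with a Tle4cKO gene-end summit were also 0 with a window of 2 kb, the only alternative that could have raised the count. Over all genes that window marked 1505. A Tle4cKO summit was present at 22.7% of the members marked in WT. This became 0% at gene ends (0 of 9, interval 0 to 33.6%), where that of all genes was 24.7%. It was 0% at a score of at least 5 (0 of 10, 0 to 30.8%), where that of all genes was 14.7%. With the reduced WT list it was 20% for the members (1 of 5, 0.505 to 71.6%) and 47.8% for all genes. Each of these intervals includes the share of all genes. Of the 5 members with both, 5 had the closest summits within 500 bp and 2 within 250 bp, again with no share over all genes to be read against. For the signalling list, the reduced WT list left 15 of 38 genes, against 2810 of 8573 over all genes. A score of at least 5 left 2 of 15 Tle4cKO genes, with no such count over all genes. Over all genes, the summits inside genes marked 5537 in WT and 1589 in Tle4cKO, against 8573 and 2548 within 10 kb. Depth is unknown and limits every count, since a summit that was not called may carry signal.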

Other observations

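Superfamily genes whose names fall outside the rule were looked at in the same way. Eda and Edar, the ectodysplasin ligand and receptor genes of skin appendages, and Relt, a TNF receptor-like gene, had no summit of either library within 10 kb. The median distance from a gene to the closest WT summit was 23.1 kb for ligand genes, 6.18 kb for receptor genes and 27.1 kb for all genes, and to the closest Tle4cKO summit 226, 132 and 219 kb.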
